A study of Homo sapiens with 2 samples.

Results

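Chromatin remodelers and the enzymes that add or remove histone methyl groups were examined as RNA substrates of editing directed to RBFOX2 in HEK293T cells, a human embryonic kidney line that the labels name HEK293XT. The genes were chosen by symbol, with earlier results of these data known, as the protein-coding genes of GENCODE 44 whose symbols start with SMARC, ARID, KDM, KMT or BAZ, or with CHD and a digit. Of the 66 annotated genes that match, 54 had at least 1 listed edit, among 9183 protein-coding genes with a listed edit in all. For 9 genes (ARID3A, ARID3C, CHD5, CHD9NB, KDM4E, KDM4F, KDM5D, KDM6B and KDM7A) no isoform model was assigned, and 3 (BAZ1B, SMARCA4 and KDM4D) had a model and no listed edit.

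Both libraries came from methanol-fixed cells incubated with APOBEC1, a cytidine deaminase, joined to a nanobody that binds antibodies. For the RBFOX2 library an antibody to RBFOX2 had been bound beforehand, which places the enzyme where RBFOX2 sits and turns nearby cytosines into uracils. For the enzyme-only library no antibody was used, so its edits are the background. Long PacBio reads of whole cDNAs were made from each, with 1 library per group, labelled replicate 2 for RBFOX2 and replicate 1 for enzyme-only. No difference therefore has a replicate check, no test was possible, and every comparison is between these 2 libraries. A site is a listed cytosine, on its strand of hg38, inside an exon of the isoform models. Brackets after a share or ratio hold its exact (Clopper-Pearson) 95% interval, which reflects the number of sites counted and, without molecular identifiers, no other error. It takes each site as an independent count, although 1 read can carry several edits, so it can be too narrow. The deposited fraction is converted reads over all reads of the locus, and every listed fraction is over 0.2%, so a locus of 500 or more reads needs 2 converted reads for a site to be listed. Reads are known only for loci with a listed site.

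SWI/SNF, ISWI and CHD remodelers use the energy of ATP to slide, eject or exchange nucleosomes. Their ATPase subunits work in complexes with targeting subunits, among them some of the ARID proteins and the BAZ proteins. KMT enzymes add methyl groups to histone lysines and KDM enzymes take them off, either with a flavin cofactor, as in KDM1A, or with iron, as in the Jumonji demethylases. RBFOX2 is a splicing regulator that also binds 3'UTRs and recognises the hexamer UGCAUG. APOBEC1 prefers cytosines that follow an A or a U.

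Places in 3'UTRs where RBFOX2-library sites lay close around a hexamer are shown first, as 30-base windows in RNA letters, 5′ to 3′. Capitals mark the hexamer and every cytosine listed in the RBFOX2 library. The windows lie at chr17:63832603-63832632 (minus strand) in the 3'UTR of SMARCD2, at chr4:94290501-94290530 and chr4:94290270-94290299 (plus strand) in the 3'UTR of SMARCAD1 and at chr17:7912088-7912117 (plus strand) in the 3'UTR of CHD3.
SMARCD2: uggguuUGCAUGuuuaCagaCuCCcccugg
SMARCAD1 first: agguaCUGCAUGgaaauagguCauuaaCuu
SMARCAD1 second: aucuugUGCAUGuuuucauugauuucccuC
CHD3: gguggCUGCAUGuuaccguccccuaccucu
The SMARCD2 window held 4 RBFOX2 sites and 1 enzyme-only site. The first SMARCAD1 window held 3 and 0. The CHD3 window and the second SMARCAD1 window held 1 and 0 each. These windows were picked for their RBFOX2 sites. The other CHD3 hexamer, at 7912605 in the same 3'UTR, had 0 RBFOX2 and 2 enzyme-only sites within 50 nt. The other SMARCD2 hexamer, at 63832223 in the same 3'UTR as the first, had 0 and 0. The windows at a coding hexamer of SMARCA5 and of SMARCC2 held 0 RBFOX2 sites and 1 enzyme-only site each.

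A second set of windows shows places in 3'UTRs where RBFOX2-library sites were dense without a hexamer. Capitals here mark listed cytosines alone. They lie at chr2:86492312-86492341 (plus strand) in the 3'UTR of KDM3A, at chrX:129446843-129446872 (minus strand) in the 3'UTR of SMARCA1 and at chr6:157209069-157209098 (plus strand) in the 3'UTR of ARID1B.
KDM3A: CaugCauCCuuaaaCugugaCuuCuCaCCu
SMARCA1: uuuuauaugCcgCugcuuugaaagagaaCC
ARID1B: CaaCuuCaaagauuuuuCagugaugagaau
All 10 cytosines of the KDM3A window and all 4 of the ARID1B window were listed, against 4 of 6 in the SMARCA1 window. The enzyme-only library listed none of them. Each KDM3A site rested on 1 converted read, and the 4 ARID1B sites on 7 converted reads in all. A window in the KDM1A coding sequence and another in the SMARCD2 3'UTR, not shown, also held 4 RBFOX2 sites each. Over the 3531 genes with at least 20 sites and a site in the RBFOX2 library, the densest 30 bases held 3 sites at the median gene, and the KDM3A window, with 10, was the highest.

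The 54 genes held 695 RBFOX2 and 529 enzyme-only sites, after the 37 positions listed in both were set aside. These are 1.05% (0.978 to 1.14) and 0.803% (0.736 to 0.874) of the 65910 cytosines in their exons. In all other protein-coding genes the shares were 1.39% and 1.15%. Most sites were thin. The share with 2 or more converted reads was 6.04% (4.39 to 8.08) for RBFOX2 and 5.10% (3.39 to 7.34) for enzyme-only, below the 14.9% and 9.85% of the other genes. Among genes under 500 reads in both libraries the shares were 4.94% and 3.73% for these genes and 7.34% and 4.43% for the rest. The median gene had 155 RBFOX2 and 141 enzyme-only reads, and the read ratio between libraries, RBFOX2 over enzyme-only, had a median of 1.13 here and 1.11 over all genes.

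Between the libraries the site count per gene was compared as a log2 ratio, RBFOX2 over enzyme-only, with a pseudocount of 0.5 and after scaling by the library totals of 103825 and 85980 sites. The ratio was read where both libraries together listed 20 or more sites, which 24 of the 54 genes reached. Of these 24, 5 had a log2 ratio over 1, against 16.5% of the 3544 genes of all kinds with at least 20 sites, and 2 had a ratio under -1, against 14.8%. The interval lay above 0 in 4 genes, against 14.7% of all genes, and below 0 in 1, against 14.7%. The median was 0.27 here and 0.07 over all genes, and 18 of 24 ratios were positive against 52.5% of all. This lean belongs to the genes that reached the minimum. By unscaled counts over all 54 genes, 27 had more RBFOX2 sites, 24 had fewer and 3 had as many. With a common read minimum, set for both libraries by the deeper of them, 15 of 24 were positive. With scaling by gene reads 19 were. Of the genes over 1, ARID3B had most of its sites in exons of a neighbouring gene, described with the ARID genes.

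**Figure D1:**
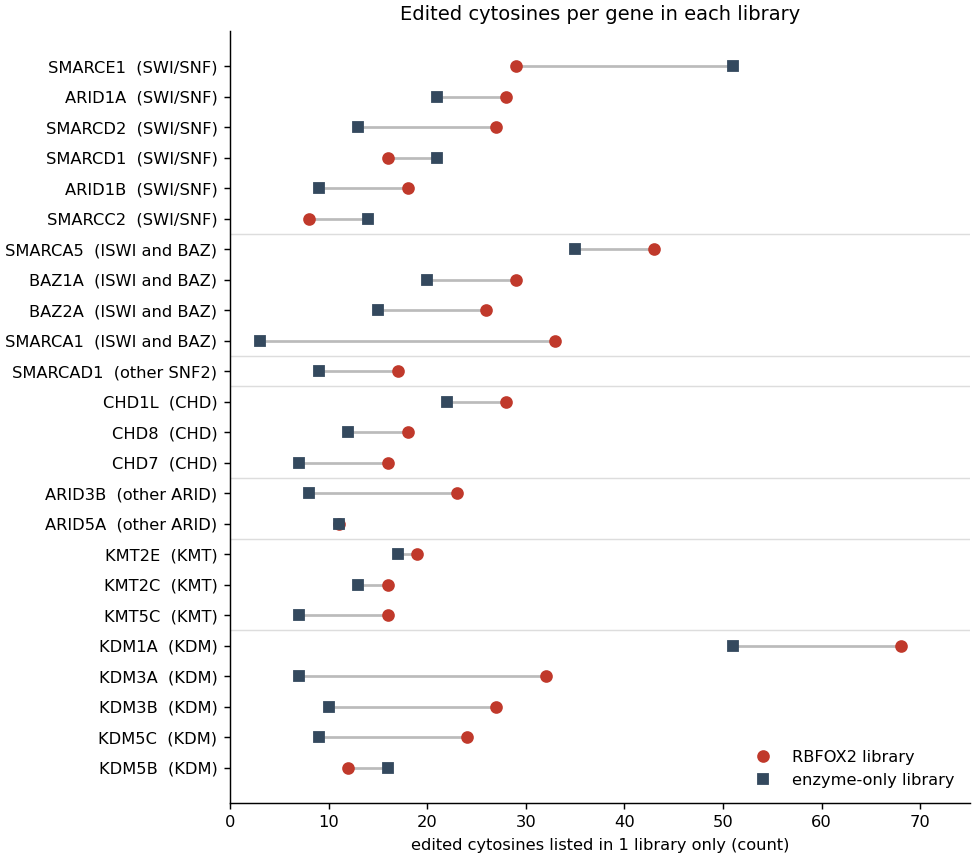
Number of edited cytosines listed in 1 library only, for the 24 genes where these came to 20 or more, grouped by family. Red circles are the RBFOX2 library and dark squares the enzyme-only library. KDM1A has the most sites (68 and 51), SMARCA1 the widest gap in favour of RBFOX2 (33 and 3) and SMARCE1 the widest in favour of enzyme-only (29 and 51).

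**Figure D2:**
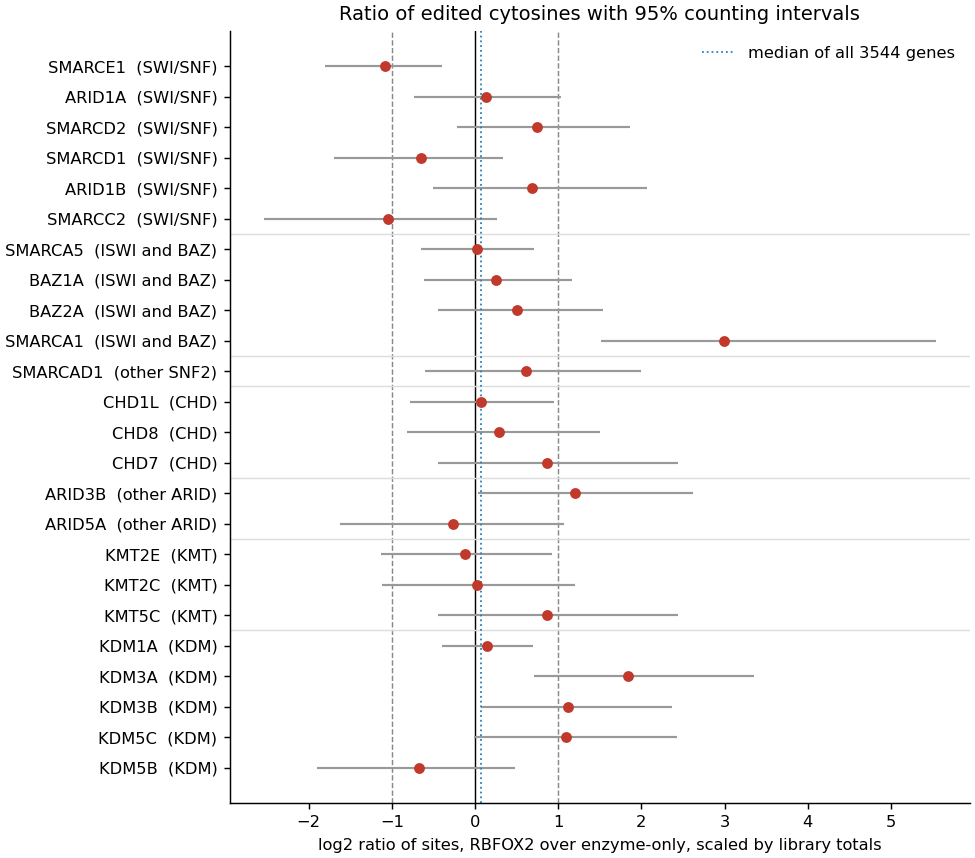
Scaled log2 ratio of sites (RBFOX2 over enzyme-only) for the same 24 genes, with exact 95% intervals for counting error. Dashed lines mark 1 and -1 and the dotted line the median of 0.07 over 3544 genes. SMARCA1 and KDM3A stand highest, at 2.99 and 1.84, and SMARCE1 lowest, at -1.08.

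The SWI/SNF genes were the family with more sites in the enzyme-only library, 147 against 129 over 11 listed genes. Their median log2 ratio was -0.26 over 6 genes with enough sites. The order of the unscaled family totals rests on SMARCE1, without which the RBFOX2 total is the higher. Those totals do not take into account the ratio of 1.21 between the library totals. Of the 11 genes 8 had fewer RBFOX2 sites and 3 had more, counting SMARCA2, whose loci differ between the libraries. SMARCE1, a DNA-binding subunit of the BAF complex, had 29 sites in 399 RBFOX2 reads and 51 in 332 enzyme-only reads. Its log2 ratio was -1.08 (-1.80 to -0.40), so the enzyme-only library was higher by more than the counting error of independent sites. The gap lay in the coding sequence, with 12 RBFOX2 sites against 31, more than in the 3'UTR, with 15 against 20. SMARCE1 also has 7 positions listed in both libraries, and its locus overlaps a second annotated gene.

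SMARCC2 and SMARCD1, a scaffold and an accessory subunit, also had fewer RBFOX2 sites, 8 against 14 and 16 against 21. Their log2 ratios were -1.04 (-2.54 to 0.27) and -0.65 (-1.70 to 0.34), within counting error of 0. SMARCD2, a paralogue of SMARCD1, ran the other way, with 27 sites in 221 RBFOX2 reads and 13 in 192 enzyme-only reads and a log2 ratio of 0.75 (-0.22 to 1.86). ARID1A, a DNA-binding subunit of BAF, had 28 and 21 sites and a ratio of 0.13 (-0.73 to 1.03). The core subunits SMARCB1 and SMARCC1 were listed in the enzyme-only library alone, at 921 and 934 reads, the deepest of all these genes, with 1 and 2 sites. At that depth a site needs at least 2 converted reads to be listed, so their counts cannot be set beside those of shallower genes. SMARCA2, a catalytic subunit, was read at 2 separate loci, each listed in a different library, and its 1 RBFOX2 site and 10 enzyme-only sites are not a comparison of the same RNA.

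The ISWI and BAZ genes held 132 RBFOX2 and 76 enzyme-only sites. All 4 genes with enough sites had positive ratios, with a median of 0.38. SMARCA1, an ISWI ATPase, had 33 sites in 66 RBFOX2 reads and 3 sites in 55 enzyme-only reads. Its log2 ratio, 2.99 (1.51 to 5.54), was the highest among the 24 genes. All but 2 of the 33 sites rested on 1 converted read, and how many reads carried them is not known. The sites were spread over the mRNA: 12 lay in the 3'UTR and 20 in the coding sequence, in the enzyme-only library 1 and 2. All 25 isoform models of SMARCA1 with a site had a higher editsC in the RBFOX2 library, where editsC is the share of an isoform's exonic cytosines that are listed. Sites were placed in models by position and no edit was assigned to an isoform, so these values follow the site counts of the gene. The median editsC of its models was 5.82% against 0.557%.

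SMARCA5, the other ISWI ATPase, was far deeper and nearly even, with 43 sites in 420 reads and 35 in 360. Its log2 ratio was 0.02 (-0.65 to 0.71). Per 100 reads that is 10.2 RBFOX2 and 9.72 enzyme-only sites. BAZ1A, an ISWI partner, had 29 and 20 sites, and BAZ2A, the large subunit of the NoRC complex that silences ribosomal RNA genes, 26 and 15. Their log2 ratios, 0.25 (-0.61 to 1.16) and 0.50 (-0.45 to 1.54), do not differ from 0 beyond counting error. The site with most converted reads among all these genes lay in the BAZ1A 3'UTR, with 4 converted reads of 454.

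SMARCAD1, an SNF2-type ATPase outside these complexes, had 17 RBFOX2 sites in 105 reads and 9 enzyme-only sites in 125 reads. Its log2 ratio was 0.61 (-0.60 to 1.99), and 1.13 when scaled by the gene's reads in place of the library totals. Of its 17 RBFOX2 sites 14 lay in the 3'UTR, against 4 of 9 in the enzyme-only library.

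The CHD genes, 9 listed, had 90 and 69 sites. The 3 with enough sites had positive ratios: CHD1L, a remodeler activated by poly(ADP-ribose), 0.07 (-0.78 to 0.95), CHD8 0.29 (-0.82 to 1.50) and CHD7 0.87 (-0.44 to 2.44). CHD1L had 28 and 22 sites, the most of the family. Only 49.3% of the exonic bases of its locus lie in annotated CHD1L exons. CHD4, the ATPase of the NuRD complex, and CHD1 were deep, with 706 and 699 RBFOX2 reads and 605 and 625 enzyme-only reads, so all their sites rested on at least 2 converted reads. CHD4 had 6 RBFOX2 sites and 1 enzyme-only site, and CHD1 1 and 5. Both are too few for a ratio.

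Among the ARID genes outside SWI/SNF, ARID3B, a DNA-binding transcription factor, had a log2 ratio of 1.20 (0.04 to 2.62) from 23 and 8 sites, and 1.10 (-0.05 to 2.53) with a common read minimum. Of these, 19 RBFOX2 sites and all 8 enzyme-only sites lay outside annotated ARID3B exons and inside exons of its neighbour CLK3, a kinase of splicing factors, because both genes share 1 locus in the isoform models. The 4 RBFOX2 sites in ARID3B itself stood against 0 in the enzyme-only library. ARID5A, an RNA-binding protein as well as an ARID factor, had 11 sites in each library and a ratio of -0.27 (-1.62 to 1.07). ARID4B had 2 sites in 524 RBFOX2 reads and 9 in 481 enzyme-only reads. Its depth passes 500 reads in the RBFOX2 library alone, so single-read sites are listed in the enzyme-only library and cannot be listed in the RBFOX2 library. Both of its RBFOX2 sites lay in the 3'UTR, at 235168400 and 235168405, with 3 and 2 converted reads.

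The KMT genes had 86 and 55 sites over 8 listed genes, and none of the 3 with enough sites passed 1 or -1. KMT2E had 19 and 17 sites, with a ratio of -0.12 (-1.13 to 0.92), KMT2C 16 and 13, with 0.02 (-1.12 to 1.20), and KMT5C 16 and 7, with 0.87 (-0.44 to 2.44). KMT2A, the founding member of the MLL methyltransferases, had 17 RBFOX2 and 2 enzyme-only sites, in total under the minimum of 20. Of the 17, 8 lay in non-coding exons of the locus and 8 in coding sequence. Its reads were 561 and 246, but the difference comes mostly from a second locus of 241 reads listed in the RBFOX2 library alone, which held 1 of the 17 sites. At the locus listed in both, reads were 320 and 246.

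The KDM genes had the most sites, 204 and 137 over 14 listed genes, and the highest family median, 1.09 over the 5 genes with enough sites. Of the 14 genes, 7 had more RBFOX2 sites, 6 had fewer and 1 had as many. KDM1A, a flavin-dependent demethylase, had more sites than any other of the 54 genes, 68 in 489 RBFOX2 reads and 51 in 430 enzyme-only reads. Its ratio was 0.14 (-0.40 to 0.70). Of its sites on the canonical mRNA, 32 of 66 and 26 of 48 lay within 1000 nt of the 3' end. KDM3A and KDM3B, paralogous Jumonji demethylases, had 32 against 7 and 27 against 10 sites. Their log2 ratios were 1.84 (0.71 to 3.35) and 1.12 (0.07 to 2.37). Both lie above 0 by more than counting error only if each site is an independent count, which the deposited values cannot show. With a common read minimum, set for both libraries by the deeper of them, the KDM3B interval reached below 0 (-0.02 to 2.28) and that of KDM3A did not (0.62 to 3.25). KDM5C, a demethylase encoded on the X chromosome, had 24 and 9 sites and a ratio of 1.09 (-0.01 to 2.43), and its paralogue KDM5B had 12 and 16 and a ratio of -0.67 (-1.90 to 0.48). The intervals of KDM5C and KDM5B overlap.

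KDM3A had few reads, 67 and 56, and its sites were crowded. Of its 32 RBFOX2 sites 26 lay in the 3'UTR, and 20 lay between 86492250 and 86492499, where the enzyme-only library listed none. All 20 rested on 1 converted read each. The deposited values do not say which read carried which edit, so 20 edited reads cannot be told from 1 read edited 20 times. KDM3B had 11 of 27 RBFOX2 sites between 138435854 and 138436119, 10 of them with 1 converted read, against 1 enzyme-only site there. SMARCA1 had 11 of 33 in its densest 300 bases, KDM5C 13 of 24 and SMARCD2 13 of 27. Over all 54 genes, 23.0% (19.9 to 26.3) of sites for RBFOX2 and 17.2% (14.1 to 20.7) for enzyme-only had another site of the same library within 10 bases, and in other genes 26.0% and 21.8%.

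**Figure D3:**
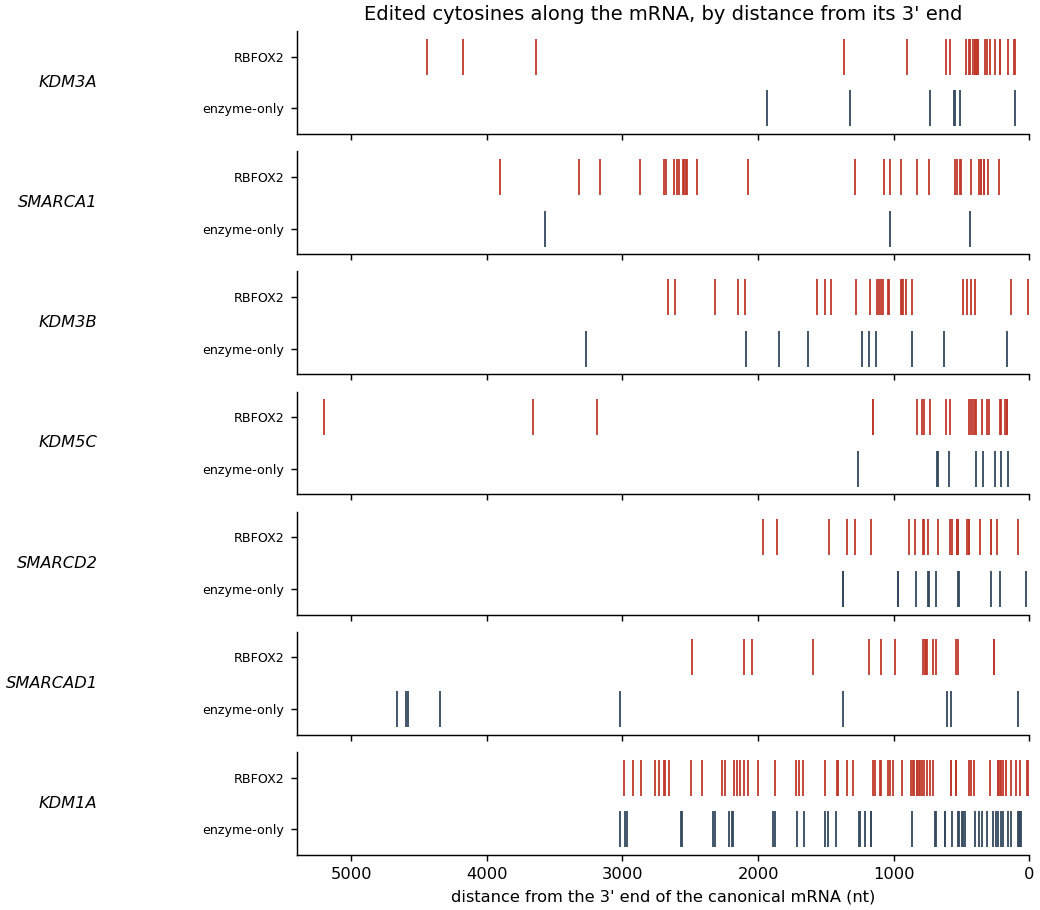
Each vertical line is an edited cytosine listed in 1 library only, placed by its distance in nt from the 3' end of the canonical mRNA (0 at the right), for 7 genes. The upper row of each panel is the RBFOX2 library and the lower row the enzyme-only library. In KDM3A 26 of 30 RBFOX2 sites on the mRNA lie within 1000 nt of the end, while SMARCA1 has 15 of 33 there and a second group in the coding sequence.

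With the sites of these genes pooled, and coding sequence taking precedence, a larger share of RBFOX2-library sites lay in annotated 3'UTRs. The 3'UTR share was 41.4% (37.7 to 45.2) for RBFOX2 and 32.3% (28.4 to 36.5) for enzyme-only, with 21.5% of all exonic cytosines of these genes. In the coding sequence lay 51.1% (47.3 to 54.9) and 61.6% (57.3 to 65.8), with 59.1% of the cytosines. The intervals of the libraries do not overlap in either region. The other genes differed in the same directions, with 42.4% and 36.2% in the 3'UTR. Where transcripts disagreed on a position, coding sequence took precedence. Counted as 3'UTR wherever any transcript has one there, including transcripts with early stop codons, the shares were 67.1% and 68.8%, and the difference was gone. On the canonical transcript of each gene alone they were 43.5% (39.7 to 47.4) and 33.3% (29.2 to 37.6).

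Distance from the 3' end, again with the sites of all genes pooled, gave the same order without a choice of region. Within 1000 nt of the end of the canonical mRNA lay 35.6% (31.9 to 39.4) of the RBFOX2 sites, 25.6% (21.8 to 29.6) of enzyme-only sites and 14.4% of cytosines. The median distances were 1560, 2220 and 2940 nt. The cytosine values, here and for the regions, give every cytosine of the models the same weight. Reads per position are not among the deposited values, so depth along the mRNA was not taken into account. Without KDM3A and SMARCA1 the shares were 32.4% (28.7 to 36.4) and 24.9% (21.1 to 29.0), whose intervals overlap. Pooled shares also depend on which genes hold the sites of each library, and single genes went both ways. In BAZ1A 17 of 29 RBFOX2 and 5 of 20 enzyme-only sites lay within 1000 nt, in ARID1A 9 of 28 and 3 of 21. The order was the reverse in KDM5C, with 19 of 24 and 8 of 9, and in KDM1A, with 32 of 66 and 26 of 48. Distances run to the annotated end, which the models of some genes do not reach. In SMARCE1, whose models cover 46.2% of the canonical mRNA, 0 of 26 and 0 of 51 sites lay within 1000 nt. In SMARCA5, covered to 59.4%, 0 of 43 and 0 of 35 did. All sites of these genes therefore count as far from the end. Isoform models covered a median of 76.0% of the canonical mRNA of these genes, with 15 genes under 50%, and the lowest cover was 9.66%, in CHD6. The longest mRNA, KMT2D at 20635 nt, was covered to 12.9% and had 1 site. Values of such genes describe only the covered stretches.

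The base before the edited cytosine was A or U in 70.8% (67.3 to 74.1) of sites for RBFOX2 and in 65.6% (61.4 to 69.6) for enzyme-only, while 45.1% of exonic cytosines follow A or U. Other genes had 71.8% and 63.9%. In these genes the library intervals overlap. Among sites with at least 2 converted reads 36 of 42 and 23 of 27 followed A or U.

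**Figure D4:**
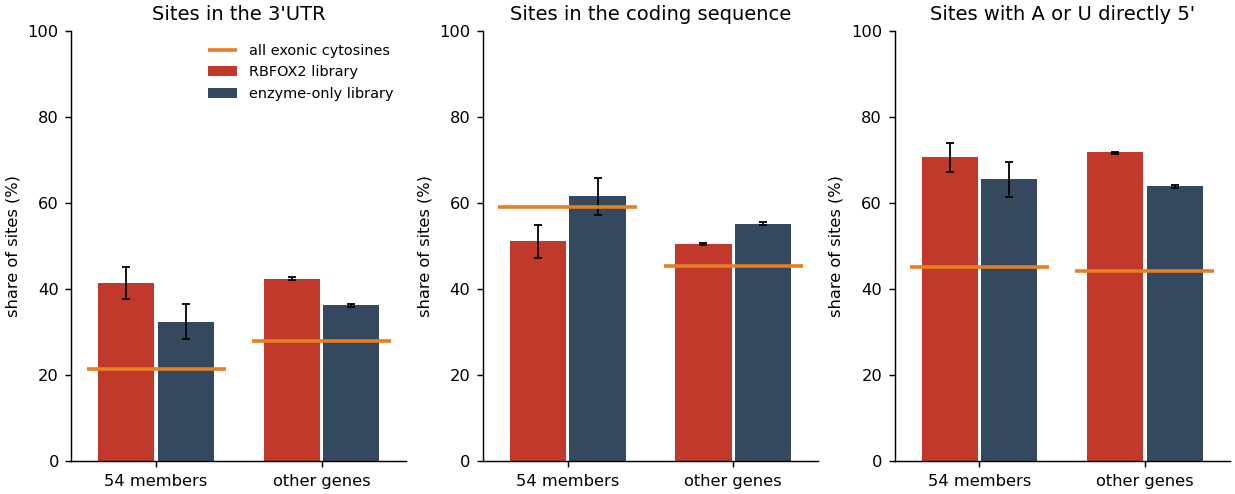
Share of sites (%) in the 3'UTR, in the coding sequence and with A or U directly 5' of the edited cytosine, for the 54 genes and for all other protein-coding genes. Bars are the libraries with exact 95% intervals, and the orange line is the share over all exonic cytosines of the same genes. In the 54 genes 41.4% of RBFOX2 sites and 32.3% of enzyme-only sites lie in the 3'UTR, and both exceed the 21.5% of cytosines.

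Distances to the hexamer are on the genome. Near it the libraries did not separate over these genes as a whole. Within 50 nt of UGCAUG on the same strand lay 20 of 695 RBFOX2 sites, 2.88% (1.77 to 4.41), and 17 of 529 enzyme-only sites, 3.21% (1.88 to 5.10). Divided by the share of exonic cytosines of the same genes, these gave 1.24 (0.764 to 1.91) and 1.50 (0.880 to 2.38). With a window of 20 nt the order of the libraries turned, to 1.86 (0.992 to 3.15) and 1.38 (0.557 to 2.83), and these intervals overlap too. In other genes the values at 50 nt were 1.53 (1.48 to 1.58) and 0.949 (0.908 to 0.991). The interval for RBFOX2 holds both 1 and the value of the other genes, so the number of sites does not separate them. With the shorter motif GCAUG, a choice made after seeing the data, the values were 1.26 (0.998 to 1.56) and 1.17 (0.874 to 1.53).

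In the 3'UTR 13 of 288 RBFOX2 sites lay near a hexamer, 4.51% (2.43 to 7.60), against 5 of 171 enzyme-only sites, 2.92% (0.956 to 6.69), and 2.50% of cytosines. In the coding sequence 6 of 355 and 10 of 326 did, 1.69% (0.623 to 3.64) and 3.07% (1.48 to 5.57), against 2.02% of cytosines. The intervals overlap in both regions. The exons held 55 hexamers in 31 genes. A site lay within 50 nt of 9 of them in the RBFOX2 library and of 9 in the enzyme-only library, 16.4% (7.77 to 28.8) each. In other genes the shares were 24.4% (23.4 to 25.3) and 16.1% (15.3 to 17.0).

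Of the 20 RBFOX2 sites near a hexamer, 14 were in 3 genes. SMARCD2 had 6 around a 3'UTR hexamer at 63832621 to 63832626, against 2 in the enzyme-only library, and this hexamer was in all 15 isoform models of the gene. The farthest of the 6, 37 nt 5' of the hexamer, had 3 converted reads of 221, and the other sites near it had 1. Another 3'UTR hexamer of SMARCD2, at 63832223 and also in all 15 models, had 0 sites of either library within 50 nt. SMARCAD1 had 5 around 2 hexamers in its 3'UTR, at 94290507 and 94290276, against 0, and each hexamer was in 12 of 14 models. KDM1A had 3 around its coding hexamer, against 4. The counts are too small for the libraries to be told apart in any of these genes. KMT5A, a methyltransferase named after its value was seen, as were CHD3, CHD6, CHD7, CHD8, BAZ2A, ARID1A, SMARCA2, KMT2C, KMT2D and KMT5C above, had the only other site with more than 1 converted read near a hexamer, with 2 of 116 reads, 15 nt 5' of it.

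**Figure D5:**
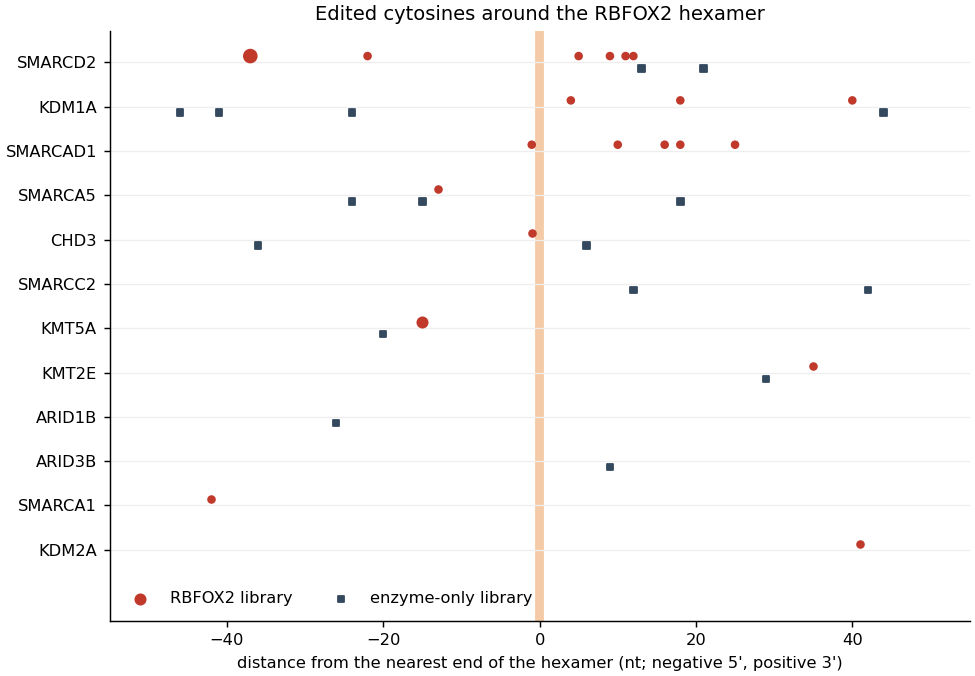
Edited cytosines within 50 nt of UGCAUG, by distance in nt from the nearest end of the hexamer (negative 5', positive 3', shaded at 0), for the 12 genes with any. Red circles are the RBFOX2 library and dark squares the enzyme-only library, and larger symbols have more converted reads. SMARCD2 and SMARCAD1 have 6 and 5 RBFOX2 sites against 2 and 0 enzyme-only sites, and KDM1A has 3 and 4.

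Among the 5 genes with a log2 ratio over 1, SMARCA1 held 2 coding hexamers and the ARID3B locus 2, both outside ARID3B exons. No exonic cytosine of KDM3A lay within 50 nt of a hexamer, of 1376, and 1 of 1109 did in KDM3B and 16 of 1691 in KDM5C. In the ARID3B locus 51 of 2165 did, with 0 RBFOX2 sites there. In SMARCA1 47 of 736 did and 1 of its 33 RBFOX2 sites was there, in the coding sequence. SMARCC2 had 129 of 1519 cytosines near a hexamer, with 0 of 8 RBFOX2 sites and 2 of 14 enzyme-only sites there.

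Sites with at least 3 converted reads numbered 8 for RBFOX2 and 3 for enzyme-only, and after them 34 and 24 sites were tied at 2. The 4 RBFOX2 sites below are those of the 8 with the most converted reads or the highest fractions. The capital is the edited cytosine with 10 bases on either side. They lie at chr14:34753076 (minus strand) in the BAZ1A 3'UTR, at chrX:129446809 (minus strand) in the SMARCA1 3'UTR and at chr17:63832663 and chr17:63832862 (minus strand) in the SMARCD2 3'UTR.
BAZ1A: uguuugaguaCauucuuucaa
SMARCA1: uuguuucauaCuuuaaauuua
SMARCD2 first: ugugcuuugaCauuguaagac
SMARCD2 second: gggccgcagaCacguaggcug
In these 4 the base before the C is an A, and of the other 4 it is an A in ARID4B and CHD4 and a U in CHD1 and KDM1A. The deposited fraction, converted reads over the reads of the whole locus, was 4.55% in SMARCA1 (3 of 66 reads), 1.36% in both SMARCD2 sites (3 of 221) and 0.881% in BAZ1A. The other RBFOX2 sites of this kind lay in ARID4B, CHD1, CHD4 and KDM1A, with fractions from 0.425% to 0.613%. The 3 enzyme-only sites lay in ARID1B, CHD1 and KDM1A, at 2.94%, 0.480% and 0.698%.

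Of the coding sites that could be read in the canonical transcript, 203 of 350 RBFOX2 and 182 of 322 enzyme-only sites would change an amino acid if the C were read as U, 58% and 56.5%, beside 54.5% of all coding cytosines. A stop codon would arise at 21 RBFOX2 sites, 6.0% (3.75 to 9.03), and 14 enzyme-only sites, 4.35% (2.40 to 7.19), against 8.49% of coding cytosines in these genes. The enzyme-only interval lies below that share and the RBFOX2 interval spans it. The 21 sites lay in 13 genes, with 3 each in KDM1A and SMARCA1, and 11 of them were CAG codons, 7 CGA and 3 CAA. All but 4 of them rested on 1 converted read, the exceptions being in CHD4 (2 sites), BAZ2A and KDM1A with 2 reads each.

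Across isoforms, 516 of 905 models of these genes had a higher editsC in the RBFOX2 library, 57.0% (53.7 to 60.3), and 324 a lower one, close to the 56.8% of other genes. The median editsC was 1.48% and 1.22%, below the 2.12% and 1.71% of other genes. Isoforms of a gene share most of their sites and are not independent. No edit was assigned to an isoform, so these counts largely follow the site counts of the genes. In SMARCD2 all 15 and in SMARCAD1 all 14 models were higher in the RBFOX2 library, in KDM3A 19 of 20 and in KDM1A 39 of 44, while in SMARCE1 28 of 29 were lower. With 1 model per gene the share was 51.9%.

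Partner subunits and enzymes of the same pathways with other symbols were counted in the same way. Of 53 such genes 47 were listed and 26 had at least 20 sites, of which 5 were over 1 and 3 under -1, beside the 16.5% and 14.8% of all genes. The interval lay above 0 in 2, RBBP7 and NSD2, and below 0 in 2, BCL7B and NSD1. Those over 1 were RBBP7, a histone-binding subunit of NuRD, with 38 and 11 sites (1.47), NSD2, a histone methyltransferase, with 32 and 7 (1.84), the ISWI partner BPTF with 16 and 5 (1.31), EZH2 with 16 and 6 (1.07) and DPY30 with 21 and 8 (1.07). Those under -1 were the SWI/SNF subunit BCL7B with 19 and 34 (-1.10), CXXC1 with 12 and 21 (-1.05) and NSD1, whose 25 sites were all in the enzyme-only library.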

How the data were processed

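Full-length PacBio reads from both libraries were aligned to hg38 by the authors with pbmm2, after consensus calling, and C-to-U edits were called with their own code. Their methods name a Kinnex kit, whereas the labels name an Iso-Seq kit. They describe removing known variants by way of dbSNP, which was not repeated. The tool that built the PB loci is not given in the sources used here. The deposited tables hold, for each position, whole-number counts of converted reads and of reads of the whole locus. The deposited edit fraction is the first count over the second. Their confidence value entered no comparison. The sequence around 1 coding hexamer is not reported here.

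Loci were assigned to GENCODE 44 protein-coding genes by largest exonic overlap on the same strand. Of 12178 listed loci 10116 had an isoform model. Positions listed in both libraries and positions outside model exons were set aside. Members and gene lists were chosen with earlier results of these data known. Named genes were, by rule, the gene with most sites in each family, the 5 highest and 5 lowest ratios, genes with 2 or more RBFOX2 sites near UGCAUG, the 5 deepest genes and the sites with most converted reads. With 1 library per group no test was run. Alternatives covered evidence per site, depth, scaling, site minimum, motif window, region and transcript. Scripts used Python 3.11.15, numpy 2.4.6, pandas 2.3.3 and scipy 1.17.1 and were tested on simulated data.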

Additional observations from a re-analysis of the deposited data

How the results depend on the processing

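Of 114 alternative values for the comparisons, 85 stayed within counting error or close to the count and 29 moved. Each value was judged within its library, so a turn in the order of the libraries was not counted. With at least 2 converted reads per site, 42 RBFOX2 and 27 enzyme-only sites were left, by construction, or 0.637 and 0.410 per 1000 exonic cytosines. In these few sites the motif ratio was 1.92 and 0, A or U came before 85.7% and 85.2%, the 3'UTR held 50% of RBFOX2 sites, and the coding sequence held 45.2% and 55.6%. Isoforms higher in the RBFOX2 library were 69.1%, and coding changes were 46.7% of enzyme-only coding sites. Restricted to genes of 20 or more reads per library, there were 12.0 and 8.87 sites per 1000 cytosines. With 3'UTR placed before coding sequence the 3'UTR held 67.1% of RBFOX2 and 68.8% of enzyme-only sites, and the coding sequence 25.5% and 25.1%. With 1 isoform per gene 51.9% of isoforms were higher.

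A minimum of 10 sites gave 8 genes over 1 and 5 under -1, and a minimum of 50 sites gave 0 and 1. Scaling by gene reads, keeping shared sites and leaving out loci over several genes each gave 1 gene under -1. The last also left 0 intervals below 0, because SMARCE1 lies in such a locus. A common read minimum left 2 intervals above 0, without KDM3B and ARID3B, and 15 of 24 ratios positive. The 20 nt motif window gave 1.86 and 1.38, which turned the order of the libraries. Except where the construction is named, the cause was not tested. Counting only sites inside ARID3B exons, chosen after seeing the data like the short motif, the canonical transcript and the leaving out of KDM3A and SMARCA1, moved its log2 ratio to 2.89 on under 20 sites. No paired analysis was possible because each group holds 1 library and the labels give them different replicate numbers. Single converted reads carry most sites, so depth limits every value for 1 gene.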
